A study of Mus musculus with 8 samples.

Results

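The genes described here are 10 genes of replication licensing and helicase activation, Mcm2, Mcm3, Mcm4, Mcm5, Mcm6, Mcm7, Mcm10, Cdc6, Cdt1 and Cdc45, in mammary tumours of mice. They were chosen by symbol, with earlier results of these data known. The array holds 28 probes annotated to only 1 of these symbols, of 45037 probes tested, so that 10 of 18193 named genes are covered. The samples were 4 tumours of mice treated by gavage with SKI-606, that is bosutinib, which inhibits tyrosine kinases of the Src and Abl families, and 4 tumours of vehicle mice. The dose was 100 mg/kg, and the drug was suspended with methocellulose at 0.5% and Tween 80 at 0.4%. All 8 came from female MMTV-PyMT mice on the background FVB/N-Tg(MMTV-PyVT)634Mul/J, in which the mouse mammary tumour virus promoter drives the polyoma virus middle T antigen in the mammary epithelium. The labels give no age, duration of dosing or tumour stage. They speak of RNA from each mouse without listing the animals, so a p-value here reflects the spread among these tumour samples alone, part of which may be technical. Tumour differentiation is the question that the series title gives.

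The proteins of the Mcm2 to Mcm7 genes form a ring-shaped hexamer, the core of the replicative DNA helicase. Before S phase the origin recognition complex and CDC6 load this ring onto DNA together with CDT1, which is the step called licensing. During S phase CDC45 and the GINS complex join the ring and switch it on, with MCM10 needed for activation. These genes are transcribed in proliferating cells, in large part under E2F transcription factors, and MCM proteins are used as markers of proliferation in breast tumours.

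Promoter sequences are shown as a description of the genes, and their part in the expression values was not tested. The shares of other gene lists with these motifs are given at the end. Of the 10 genes 9 had a promoter window in the RefSeq table of build GRCm38.p6, from 250 bases before to 50 bases after the gene start. The E2F motif was searched on both strands as TTTCCCGC, TTTGGCGC, TTTCGCGC and TTTGCCGC, which can overlap one another on opposite strands. It was found in 6 of 9 genes, Mcm3, Mcm5, Mcm6, Mcm7, Cdc6 and Cdt1, against 2.60% of all 27025 genes with a window (2.26% of all 32851 windows of this length). The CCAAT box, searched as CCAAT on both strands, was found in 7 of 9 genes, against 41.1% of all genes (37.4% of all windows). In 1 window, of Mcm7, a CCAAT box overlapped an E2F match. A match is a description of the letters and says nothing of binding. The windows of Mcm6 and Mcm5 are given as those of the genes with the lowest fold changes, Mcm3 as a gene with matches and a fold change near 0, Cdt1 and Cdc6 as the loading factors, and Mcm2 as a window without a match. Each is printed 5′ to 3′ on the strand of its gene, with the E2F matches in capitals.
Mcm6, chr1:128359656-128359955, minus strand: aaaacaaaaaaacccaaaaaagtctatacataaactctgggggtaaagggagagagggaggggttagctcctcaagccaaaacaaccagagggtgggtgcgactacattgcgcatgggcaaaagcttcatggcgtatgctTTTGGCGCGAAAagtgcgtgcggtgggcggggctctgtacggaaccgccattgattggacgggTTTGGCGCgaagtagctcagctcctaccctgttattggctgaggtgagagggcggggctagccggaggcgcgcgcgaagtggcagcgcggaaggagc
Mcm5, chr8:75109259-75109558, plus strand: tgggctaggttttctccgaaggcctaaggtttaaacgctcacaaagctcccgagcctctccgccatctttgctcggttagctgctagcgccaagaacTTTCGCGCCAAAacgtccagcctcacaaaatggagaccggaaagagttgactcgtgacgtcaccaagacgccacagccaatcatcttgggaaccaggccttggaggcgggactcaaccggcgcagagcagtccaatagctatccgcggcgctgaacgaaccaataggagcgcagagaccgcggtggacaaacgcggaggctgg
Mcm3, chr1:20820263-20820562, minus strand: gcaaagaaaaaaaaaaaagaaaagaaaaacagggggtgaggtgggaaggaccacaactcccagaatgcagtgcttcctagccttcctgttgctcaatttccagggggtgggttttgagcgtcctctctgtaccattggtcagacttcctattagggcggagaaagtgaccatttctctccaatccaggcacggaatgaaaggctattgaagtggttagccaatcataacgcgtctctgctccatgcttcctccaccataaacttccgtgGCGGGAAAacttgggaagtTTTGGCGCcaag
Cdt1, chr8:122567765-122568064, plus strand: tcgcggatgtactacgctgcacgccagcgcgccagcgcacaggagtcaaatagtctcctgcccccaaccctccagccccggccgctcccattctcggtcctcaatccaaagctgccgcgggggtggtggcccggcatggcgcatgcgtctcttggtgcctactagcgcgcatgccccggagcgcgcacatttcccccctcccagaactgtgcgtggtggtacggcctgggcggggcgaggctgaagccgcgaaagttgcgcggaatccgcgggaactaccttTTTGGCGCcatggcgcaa
Cdc6, chr11:98907901-98908200, plus strand: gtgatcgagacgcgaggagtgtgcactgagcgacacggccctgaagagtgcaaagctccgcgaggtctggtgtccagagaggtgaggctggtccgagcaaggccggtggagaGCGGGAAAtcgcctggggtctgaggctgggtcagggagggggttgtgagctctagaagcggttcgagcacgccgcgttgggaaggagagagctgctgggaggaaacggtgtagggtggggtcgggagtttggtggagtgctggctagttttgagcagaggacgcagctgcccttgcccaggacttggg
Mcm2, chr6:88898731-88899030, minus strand: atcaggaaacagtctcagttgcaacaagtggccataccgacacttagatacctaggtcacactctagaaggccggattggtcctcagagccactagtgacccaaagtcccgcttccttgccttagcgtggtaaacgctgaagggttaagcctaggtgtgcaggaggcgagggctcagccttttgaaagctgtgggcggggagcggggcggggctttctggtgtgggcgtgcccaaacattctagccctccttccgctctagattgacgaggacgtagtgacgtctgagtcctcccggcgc
In the Mcm6 window the matches began at -110, -106 and -47 from the gene start, the first 2 of these overlapping, and in the Mcm5 window at -153 and -149, also overlapping. In the Mcm3 and Cdt1 windows they lay after the gene start, at 20 and 39 in Mcm3 and at 33 in Cdt1, and in Cdc6 the match began at -138.

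In SKI-606 tumours 1 and 4 every one of the 10 genes had a lower signal than in any vehicle tumour. SKI-606 tumour 2 was within the vehicle range in 6 genes, above it in 3 and below it in 1. SKI-606 tumour 3 was within that range in 5 genes and below it in 5. The 2 lowest samples were SKI-606 samples 1 and 4 in 10 of 10 genes, whereas this was so in 11.6% of all 18193 genes. All 10 genes had a log2 fold change (SKI-606 minus vehicle) below 0, as had 52.8% of all genes, except that Mcm3 was at 0.09 on the log2 of the deposited ratios. The median over the 10 was -0.51 against -0.02 over all genes. No gene passed the test: limma, with Benjamini-Hochberg adjustment over all probes at 0.05, called 0 of 10 genes and 0.0% of all 45037 probes. At an unadjusted p under 0.05 in limma, 4 of 10 genes were lower, against 4.31% of all genes. At this cut-off 0 were higher, against 1105 of all 18193 genes. The genes were chosen with earlier results of these data known, so the shares in this paragraph describe them and are no test. In the sentences below a signal is the normalized probe signal in array units, and fold changes are differences of log2(signal + 16), a scale that compresses the differences of dim genes. Signals are not compared between probes.

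**Figure D1:**
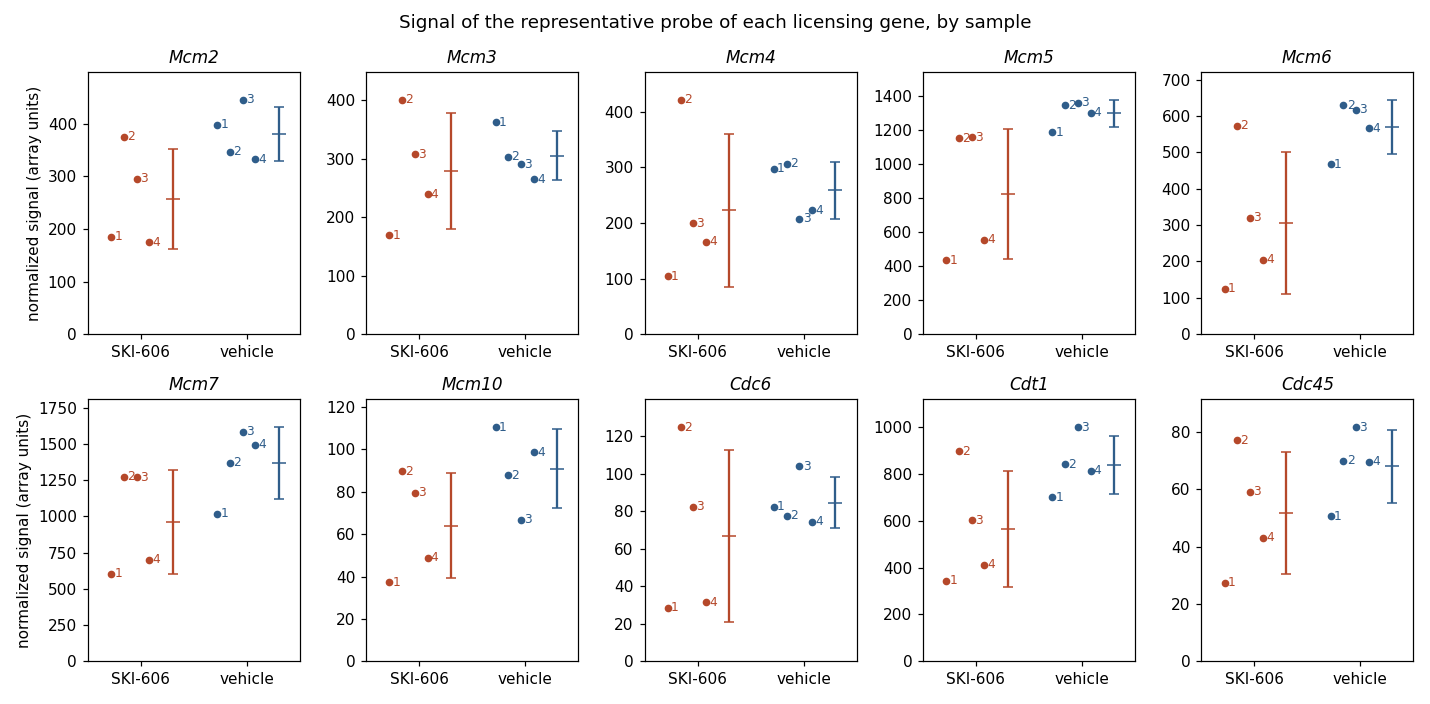
Normalized signal (array units, linear axis from 0) of the probe that represents each of the 10 genes, with SKI-606 tumours on the left and vehicle tumours on the right of each panel; numbers are the sample numbers, and bars give the mean ± SD of 4 samples. SKI-606 samples 1 and 4 lie below every vehicle sample in all 10 panels, and SKI-606 sample 2 lies above every vehicle sample for Mcm3, Mcm4 and Cdc6.

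Among the subunits of the ring, Mcm6 had the lowest log2 fold change of the 10 genes. Its signal (probe 1416251_at) was 126, 573, 321 and 205 in SKI-606 samples 1 to 4, against 467, 629.8, 617 and 567 in vehicle samples 1 to 4. SKI-606 samples 1, 3 and 4 were below the vehicle range and sample 2 within it, so the groups overlapped. The log2 fold change was -1.05 ± 0.37 (SE, n = 4 each, 95% interval -1.89 to -0.22), with an unadjusted p of 0.019 and an adjusted p of 0.561 in limma, and it ranked 38 from the lowest of 18193 genes. The second bright probe of Mcm6, 1438852_x_at, stood at -0.76 ± 0.36.

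Mcm5 was the 1 gene of the 10 whose groups did not overlap, as in 2.03% of all genes with SKI-606 below vehicle. Its signal (1436808_x_at) was 433, 1149, 1156 and 554 in SKI-606 samples 1 to 4, and 1186, 1344, 1358 and 1301 in vehicle samples 1 to 4. SKI-606 samples 2 and 3 lay just under the lowest vehicle sample, and samples 1 and 4 far under it. The log2 fold change was -0.77 ± 0.31, with an unadjusted p of 0.0316 and an adjusted p of 0.574 in limma, and a second probe, 1415945_at, gave -0.82 ± 0.33.

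Mcm2, whose protein binds histones in addition to its place in the ring, had signals (1448777_at) of 185, 375, 296 and 175 in SKI-606 samples 1 to 4, against 399, 347, 446 and 333 in vehicle samples 1 to 4. Again samples 1 and 4 were lowest, and sample 2 lay within the vehicle range. The log2 fold change was -0.59 ± 0.24, with an unadjusted p of 0.0341 and an adjusted p of 0.574 in limma. The other Mcm2 probe, 1434079_s_at, was at -0.09 ± 0.23, with 139.5, 188, 192 and 154 in SKI-606 samples and 211, 230.3, 105 and 194 in vehicle samples 1 to 4. The probes disagree chiefly in vehicle sample 3, which was the highest sample on the first probe and the lowest on the second.

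Mcm7 had signals (1438320_s_at) of 604, 1274, 1269 and 702 in SKI-606 samples 1 to 4, against 1019, 1371, 1584 and 1493 in vehicle samples 1 to 4. SKI-606 samples 2 and 3 both lay within the vehicle range. The log2 fold change was -0.56 ± 0.27, with an adjusted p of 0.618 in limma. The other 3 probes of Mcm7 were at -0.57 ± 0.19, -0.53 ± 0.21 and -0.28 ± 0.17. On the first of these, 1416031_s_at, the groups did not overlap, as on 839 of all 45037 probes with SKI-606 below vehicle.

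Mcm4 and Mcm3, the remaining subunits, had fold changes nearer to 0. The Mcm4 signal (1416214_at) was 104, 421, 200.0 and 166 in SKI-606 samples 1 to 4, against 298, 306, 208 and 223 in vehicle samples 1 to 4, a log2 fold change of -0.35 ± 0.35. The Mcm3 signal (1420028_s_at) was 169, 400.4, 307 and 239 in SKI-606 samples 1 to 4, against 362, 303, 291 and 265 in vehicle samples 1 to 4, a log2 fold change of -0.18 ± 0.24. For both genes SKI-606 sample 2 was the highest of all 8 samples. Their adjusted p values in limma were 0.815 for Mcm4 and 0.869 for Mcm3. The 95% intervals of Mcm3, -0.71 to 0.36, and of Mcm6 overlap, and differences between subunits were not tested.

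Of the loading factors, Cdt1 had signals (1424143_a_at) of 344, 895, 602 and 412 in SKI-606 samples 1 to 4, against 699, 839, 998 and 813 in vehicle samples 1 to 4. SKI-606 sample 2 lay within the vehicle range and the other 3 below it. The log2 fold change was -0.64 ± 0.27, with an unadjusted p of 0.0426 and an adjusted p of 0.586 in limma. A second Cdt1 probe, 1424144_at, stood at -0.38 ± 0.22.

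Cdc6, which encodes the ATPase that loads the ring, had the same samples at the bottom but SKI-606 sample 2 at the top. Its signal (1417019_a_at, the only probe) was 28.5, 125, 82.3 and 31.5 in SKI-606 samples 1 to 4, against 82.5, 77.7, 104 and 74.4 in vehicle samples 1 to 4. The log2 fold change was -0.44 ± 0.35, with an adjusted p of 0.756 in limma.

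Of the factors that act on the loaded ring, Mcm10 had signals (1433408_a_at) of 37.4, 89.8, 79.5 and 48.9 in SKI-606 samples 1 to 4, against 110.5, 87.8, 66.8 and 98.6 in vehicle samples 1 to 4, a log2 fold change of -0.46 ± 0.24. Cdc45, whose protein is a part of the active helicase, had signals (1416575_at) of 27.5, 77.1, 59.2 and 43.1 in SKI-606 samples 1 to 4, against 50.6, 70.0, 81.7 and 69.7 in vehicle samples 1 to 4, a log2 fold change of -0.35 ± 0.24. In both genes SKI-606 samples 2 and 3 lay within the vehicle range. The adjusted p in limma was 0.643 for Mcm10 and 0.715 for Cdc45.

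The 18 probes that do not represent a gene gave a further reading of 9 of the 10 genes. Of these, 11 had a signal of at least 50 in at least 4 samples, and 11 of 11 had a log2 fold change below 0. Of all probes, dim ones included, 53.7% were below 0. The median log2 fold change was -0.06 over all probes that pass this filter, against -0.02 over all probes. SKI-606 samples 1 and 4 were the 2 lowest samples on 7 of the 11, against 11.6% of all genes, each read from 1 probe. The other 7 probes were dim, with no signal above 26.2 in any sample, and 5 of 7 were below 0. Over all 28 probes 7 had an unadjusted p under 0.05 and a fold change below 0, against 3.79% of all probes. Probes of 1 gene read the same RNA and are not independent, and those with names ending in _s_at or _x_at may read other transcripts.

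**Figure D2:**
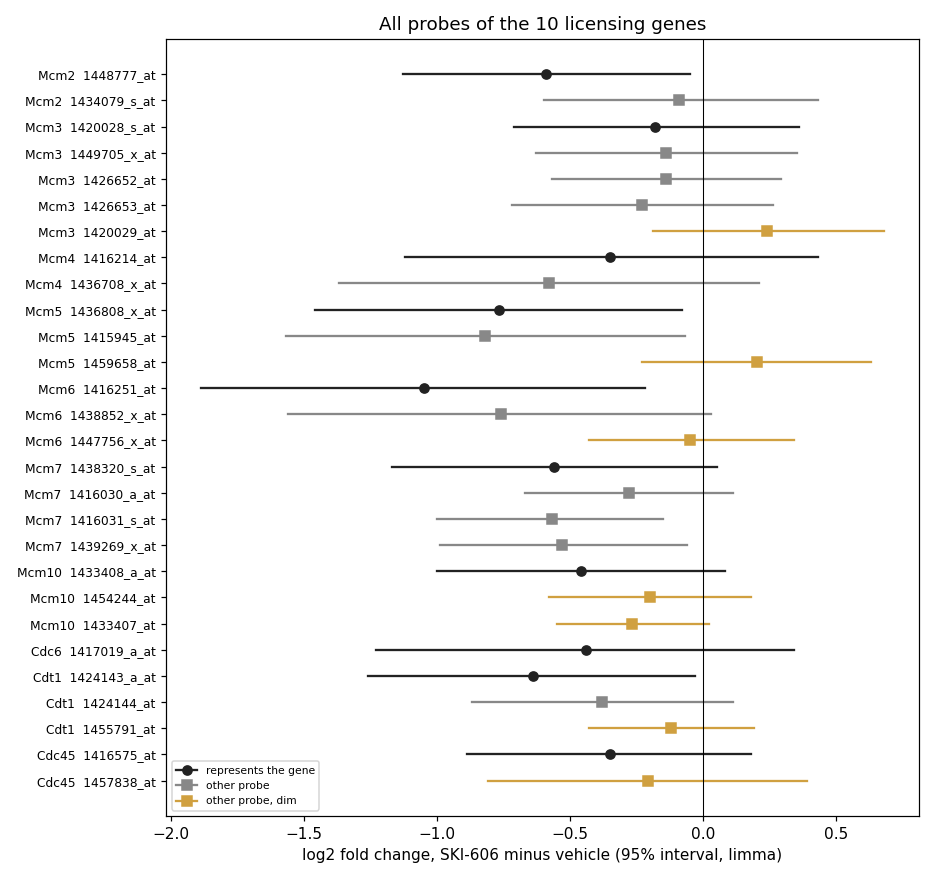
Log2 fold change (SKI-606 minus vehicle) with its 95% interval from limma for all 28 probes, by gene; black circles represent a gene, grey squares are other probes and yellow squares are other probes without a signal of at least 50 in 4 samples. All points lie below 0 except a dim probe of Mcm3 at 0.24 and a dim probe of Mcm5 at 0.20.

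The 10 genes differed more between SKI-606 tumours than between vehicle tumours. The SD of the log2 values was larger in the SKI-606 samples in 10 of 10 genes, against 56.1% of all genes. It was 0.88 in SKI-606 and 0.19 in vehicle samples for Mcm6, and 0.71 in SKI-606 and 0.09 in vehicle samples for Mcm5. The mean log2 value over the 10 genes was 7.25, 8.60, 8.20 and 7.57 in SKI-606 samples 1 to 4, against 8.39, 8.48, 8.52 and 8.40 in vehicle samples 1 to 4. By this mean SKI-606 sample 3 lay below every vehicle sample, and SKI-606 sample 2 was the highest of all 8 samples. Its signal was within the vehicle range in 6 genes, above it in 3 and below it in 1, and that of SKI-606 sample 3 was within the range in 5 and below it in 5.

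Over all probes, too, these tumours lay away from the rest. SKI-606 samples 1 and 4 were at 81.1 and 72.4 on a first principal component with 34% of the variance, against values of at most -14.8 elsewhere. Leaving out both was chosen after seeing the data, and they were the lowest samples in all 10 genes. A rise of the fold changes is thus built into this fit, which tests nothing. Without these samples 6 of the 10 genes were below 0, against 49.2% of all genes, with a median of -0.08. Mcm6 was then at -0.39 ± 0.26, Mcm5 at -0.17 ± 0.16, Mcm2 and Cdt1 each at -0.18 (SE 0.20 and 0.23), and Mcm3, Mcm4, Cdc6 and Cdc45 were above 0, at 0.20 ± 0.20, 0.18 ± 0.31, 0.24 ± 0.22 and 0.01 ± 0.21. Without SKI-606 sample 1 alone the median was -0.32, and without sample 4 alone -0.41 with 0 genes at an unadjusted p under 0.05 in limma, against 2359 of 45037 probes. Without SKI-606 sample 2 the median was -0.74 and 9 of 10 genes had an unadjusted p under 0.05, as had 4927 of 45037 probes. The smallest adjusted p of the 10 genes was then 0.343 in limma. That sample had the highest mean of the 10 genes, so leaving it out lowers their mean fold change. The number of genes at an unadjusted p under 0.05 was 1 without SKI-606 sample 1 and 2, 1 and 2 without vehicle samples 2, 3 and 4, against 4 over all samples. The number of probes was 2734 without SKI-606 sample 1, 3423, 2801 and 3511 without vehicle samples 2, 3 and 4, and 3771 over all samples.

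**Figure D3:**
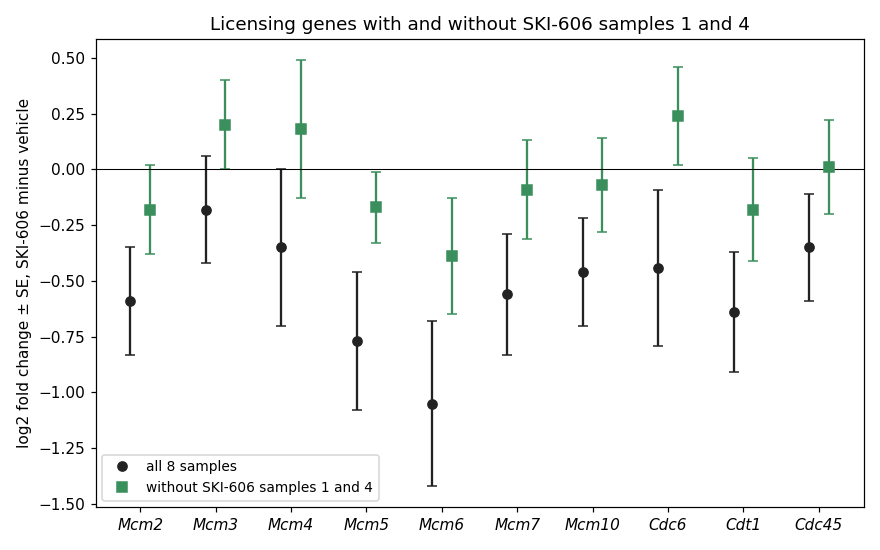
Log2 fold change ± SE (SKI-606 minus vehicle) of the 10 genes from limma, over all 8 samples (black circles, 4 against 4) and without SKI-606 samples 1 and 4 (green squares, 2 against 4). The black circles lie between -1.05 and -0.18 and the green squares between -0.39 and 0.24. SKI-606 samples 1 and 4 were left out after they were seen to be the lowest in all 10 genes.

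The other genes of replication, from lists written with earlier results of these data known, mostly had the same samples at the bottom. Over all 18193 genes 52.8% were below 0 and 4.31% were lower at an unadjusted p under 0.05 in limma. In the list of origin recognition and licensing control 22 of 25 genes were below 0, with a median of -0.26, 2 lower at an unadjusted p under 0.05 and 0 called in limma. The 4 genes of smallest p were Gins1 and Gins2, which encode subunits of the GINS complex, at -0.96 ± 0.28 and -0.74 ± 0.25, and Cdc7 and Dbf4, the kinase that triggers origin firing and its activator, at -0.68 ± 0.34 and -0.52 ± 0.26. Gins1 had signals of 23.5, 79.8, 68.3 and 35.6 in SKI-606 samples 1 to 4, against 88.7, 109, 145 and 94.6 in vehicle samples 1 to 4. Its groups did not overlap, as in 2.03% of all genes with SKI-606 below vehicle. In the list of fork proteins and nucleotide supply 24 of 27 measured genes were below 0, with a median of -0.43, 7 lower at an unadjusted p under 0.05 and 0 called. The 4 of smallest p were Dut, a dUTPase, at -0.62 ± 0.21, the clamp loader gene Rfc4 at -0.78 ± 0.27, Rrm2, the regulated subunit of ribonucleotide reductase, at -1.44 ± 0.52, and the histone chaperone gene Chaf1b at -0.66 ± 0.25. Of 19 measured genes of mitosis 19 were below 0, with a median of -0.64, 9 lower at an unadjusted p under 0.05 and 0 called; the lowest adjusted p in any of these 3 lists was 0.557. The 4 of smallest p were the cyclin gene Ccnb2, the checkpoint gene Mad2l1, the kinase gene Plk1 and Cdc20, which encodes an activator of the anaphase-promoting complex, at -0.80 ± 0.25, -0.91 ± 0.30, -0.76 ± 0.29 and -0.90 ± 0.35. In each of these 3 lists the groups of 2 genes did not overlap, with SKI-606 below vehicle, against 2.03% of all genes. The genes were Gins1 and Gins2, Dut and Rfc4, and Ccnb2 and Cdc20. SKI-606 samples 1 and 4 were the 2 lowest samples in 15 of 25, 24 of 27 and 17 of 19 genes of these lists, against 11.6% of all genes. Without these samples 12 of 25, 12 of 27 and 13 of 19 genes were below 0 (48.0%, 44.4% and 68.4%), against 49.2% of all genes.

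The means of the 10 genes and of the mitosis list did not order the samples alike. SKI-606 sample 1 was lowest for the 10 genes, at 7.25 against 7.57 in sample 4, and SKI-606 sample 4 was lowest for mitosis, at 6.55 against 6.75 in sample 1. The difference between both means averaged 0.73 ± 0.22 in SKI-606 samples and 0.62 ± 0.15 in vehicle samples (SD, n = 4 each). The mean of the 10 genes minus that of the origin and licensing control list was 1.65 ± 0.21 in SKI-606 samples and 1.86 ± 0.05 in vehicle samples, and minus that of the fork list 0.22 ± 0.11 in SKI-606 samples and 0.35 ± 0.05 in vehicle samples. These differences between lists were not tested. On the mean of the fork list the samples ran from 7.15 in SKI-606 sample 1 to 8.26 in SKI-606 sample 2. On that of the origin and licensing control list they ran from 5.82 in SKI-606 sample 1 to 6.76 in SKI-606 sample 2. These are the same ends as for the 10 genes.

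Of 8822 other genes at least as bright as the dimmest of the 10, those with the most similar profile over the 8 samples were Trip13, Rrm1, Rpp30, Dnajc9, Tmpo, Nudt5, Ezh2 and Cdca2. Likeness was the mean absolute difference between centred log2 values, which ran from 0.043 for Trip13 to 0.0878 for Cdca2, all over the same samples. Trip13 encodes an ATPase that remodels spindle checkpoint proteins, Rrm1 the large subunit of ribonucleotide reductase, Dnajc9 a co-chaperone of histones, and Ezh2 the methyltransferase of a Polycomb complex. Rpp30 encodes a subunit of RNase P, Tmpo a protein of the nuclear lamina, Nudt5 a pyrophosphatase of ADP-ribose, and Cdca2 a phosphatase-binding protein of mitotic chromatin. Their log2 fold changes lay between -0.60 and -0.40. Among the 10 genes themselves, Cdt1 was nearest to the mean of the other genes, at 0.0981, and Mcm6 farthest from it, at 0.318.

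In bulk tumour RNA, fewer cycling cells and less RNA of these genes per cell cannot be told apart. The mammary epithelial markers fit the labelled tissue, as the 8 genes had signals between 63.3 and 8146 in all samples, with Elf3 the dimmest. Their mean log2 value was 11.39, 11.08, 11.24 and 11.11 in SKI-606 samples 1 to 4 and 11.38, 11.15, 11.21 and 11.08 in vehicle samples 1 to 4. Markers of stromal and immune cells lay in the opposite direction, with 0 past the threshold over all probes. At an unadjusted p under 0.05 limma had 8 of 10 fibroblast, 5 of 8 macrophage, 4 of 8 endothelial and 6 of 9 T and NK cell markers higher, with list medians of 0.82, 0.74, 0.68 and 0.78. Of all 18193 genes 1105 were higher at this cut-off, and 8578 were above 0. All 10 fibroblast markers were above 0, with list means of 9.88 to 11.14 in SKI-606 and 9.50 to 9.98 in vehicle samples, and all 8 macrophage markers, with means of 9.66 to 10.71 in SKI-606 and 8.92 to 9.78 in vehicle samples. In both lists SKI-606 samples 1 and 4 were the highest. All 8 endothelial markers were above 0, with means of 6.74 to 7.58 in SKI-606 and 6.29 to 6.98 in vehicle samples. So were all 9 markers of T and NK cells, with means of 5.54 to 5.74 in SKI-606 and 4.74 to 5.30 in vehicle samples. SKI-606 samples 1 and 4 also had the highest means in the endothelial list and in the T and NK cell list. Of the T and NK cell markers Cd3d and Cd5 had signals near 1 in some samples. Cd3e, Cd3g, Gzma and Gzmb fell to 4.4, 4.9, 3.4 and 8.3 in their lowest vehicle sample. The fold changes of the T and NK list thus rest in part on signals near the floor. The squamous keratinization mean was 9.93 and 10.02 in SKI-606 samples 1 and 4 and 9.73 in vehicle sample 3, against 5.72 to 6.97 in the other samples. Adipocyte means ran from 5.53 to 7.89 in SKI-606 and from 5.38 to 7.34 in vehicle samples, and skeletal muscle means from 4.85 to 10.44 in SKI-606 and from 4.81 to 10.92 in vehicle samples. Of SKI-606 samples 1 and 4, the first had a muscle mean of 9.05 and the second the lowest SKI-606 value. For Actb, the control probe set at the 3′ end over that at the 5′ end, a sign of RNA integrity, gave a ratio of 1.66, 2.08, 3.35 and 2.62 in SKI-606 samples 1 to 4 and 1.77, 2.83, 3.83 and 3.78 in vehicle samples 1 to 4. For Gapdh the same ratio varied less, from 0.80 to 1.01 in SKI-606 and from 0.86 to 1.06 in vehicle samples. The part of other cell types and of RNA integrity in the licensing result was not tested.

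**Figure D4:**
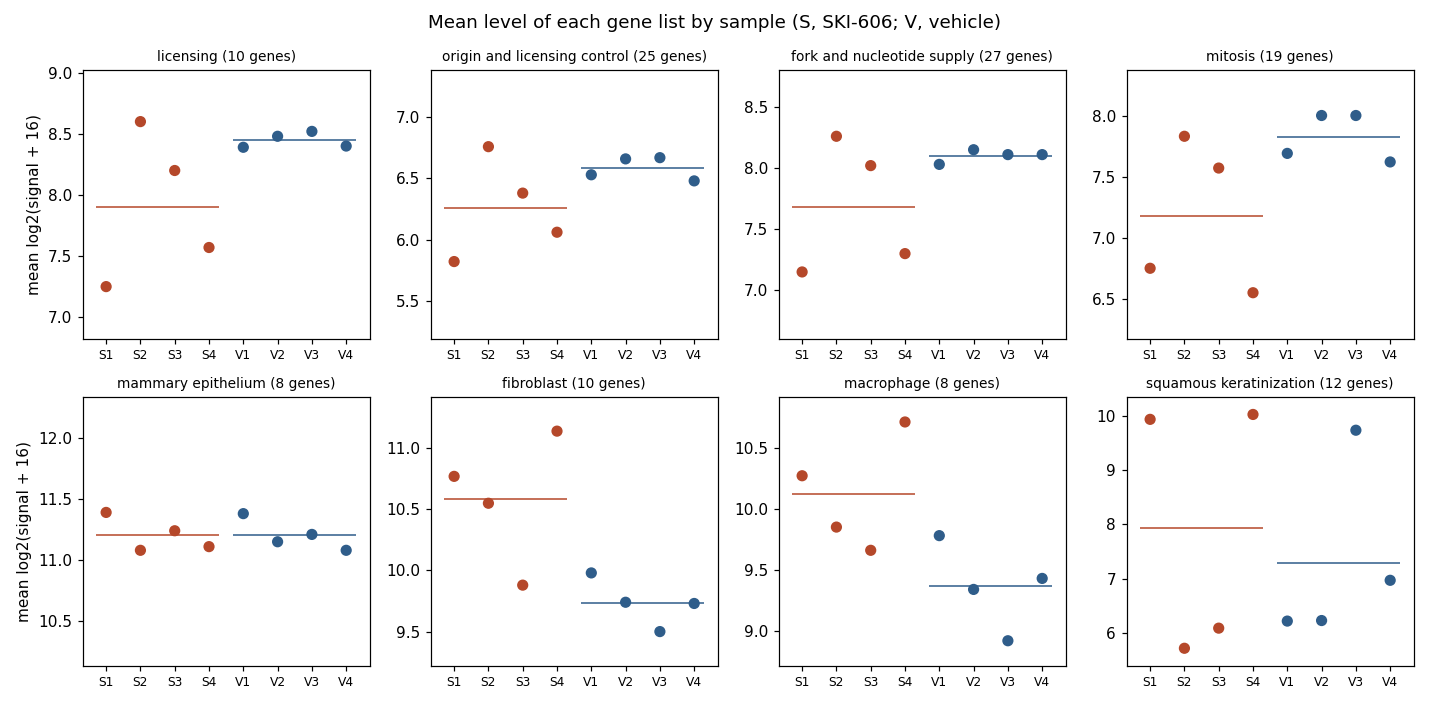
Mean log2(signal + 16) of 8 gene lists in each sample, with lines at the group means. SKI-606 samples (S1 to S4, red) lie left of vehicle samples (V1 to V4, blue). The vertical axes differ in position, do not start at 0 and span a wider range for squamous keratinization than for the other lists. S1 and S4 are the lowest samples in the 4 lists of the upper row, while the epithelial means lie between 11.08 and 11.39 in all 8 samples.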

How the data were processed

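Gene expression was measured on 8 Affymetrix mouse arrays, 4 per group, grouped by the titles in the labels. The members and lists were chosen with earlier results of these data known. The deposited values are linear ratios, as worked out from the values. The authors' software is not given in the sources used here, nor is a genome build. Each ratio is what dividing a whole-number signal by its array median, and then by the probe's median over the arrays (a constant for probes below 10, lowest ratio 0.01), gives, and the signals so recovered gave back 45101 of 45101 probes. The recovered array medians were 15 to 18 in 7 arrays and 23 in vehicle sample 3, and the number of arrays limits the precision. Without detection calls, the signal is the measure of depth. No pair of arrays held the same values.

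Signals were quantile normalized, 16 was added and log2 taken. All 45037 probes, after leaving out 64 control probes, were tested with limma 3.58.1 (R 4.3.3), without a replicate block, with Benjamini-Hochberg adjustment at 0.05. The scripts were tested on simulated data. Each gene is read from 1 probe, the brightest by mean log2 value of those that the platform annotation gives that symbol alone. Standard errors and 95% intervals are limma's. The text names all 10 member genes, the 4 genes of smallest unadjusted p in each of 3 replication and mitosis lists, and the 8 genes of nearest profile, and single cell markers only at the floor. Listed genes without a probe of 1 symbol were not analysed here. Promoters are from RefSeq (GRCm38.p6). Alternatives were no quantile step, the log2 of the deposited ratios, pseudocounts of 1 and 64, a filter on dim probes (signal of at least 50 in 4 samples), the mean of all probes, array weights, a replicate block, a threshold of 0.1 and leaving out samples.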

Additional observations from a re-analysis of the deposited data

How the results depend on the processing

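At an adjusted p under 0.05 the alternatives tried called 0 of the 10 genes and 0 probes, while 1696 to 4927 probes, or 1687 genes with the mean of all probes, had an unadjusted p under 0.05. A threshold of 0.1 was tried in the setting of the report alone and also called 0; with log2 deposited ratios the smallest adjusted p of a probe was 0.0743. The median of the 10 genes ranged from -0.74 to -0.32 over the fits that leave out 1 sample, and was -0.49 without quantile normalization, -0.34 with log2 deposited ratios (where the median of all probes was 0.10, against -0.02), -0.58 and -0.40 with pseudocounts of 1 and 64, -0.51 without dim probes, -0.41 with the mean of all probes and -0.53 with array weights. Of 160 values of single genes under alternatives that can alter a fold change 150 kept their direction and 10 did not. Mcm3 was at 0.09 on the deposited ratios and ranged from -0.36 to 0.03 over the fits without 1 sample, the highest being without SKI-606 sample 1. Without SKI-606 samples 1 and 4, an alternative chosen after seeing the data, Mcm3, Mcm4, Cdc6 and Cdc45 were at 0.20, 0.18, 0.24 and 0.01, and without vehicle sample 3 as well at 0.18, 0.09, 0.33 and 0.09, with a median of -0.05. Both fits leave out SKI-606 samples 1 and 4, the lowest in all 10 genes, so a rise of the fold changes is built in. They also have fewer samples, and no cause was tested. With the replicate number as a block the median was -0.51 and 5 of the 10 genes, against 4, had an unadjusted p under 0.05 in limma. This number was also 5 with array weights, and it was 0 on the deposited ratios, 1 and 3 with pseudocounts of 1 and 64, and 2 with the mean of all probes. Of all 45037 probes 3855 passed this cut-off with the block, 4180 with array weights, 3190 on the deposited ratios, and 3091 and 3721 with pseudocounts of 1 and 64. With the mean of all probes 1687 of 18193 genes passed it. The numbers were not taken to pair the samples. Deviations of same-numbered samples correlated at 0.02, 0.11, -0.15 and -0.11, and those of differently numbered samples at -0.23 to 0.19. With 4 samples per group these values cannot exclude a pairing.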

Other observations

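The E2F motif was found in 8 of 18 genes of origin recognition and licensing control with a window (44.4%), in 7 of 25 fork and nucleotide genes (28.0%), in 1 of 17 mitosis genes (5.88%) and in 0 of 6 epithelial marker genes, against 2.60% of all 27025 genes with a window. The CCAAT box was found in 14 of 17 mitosis genes (82.4%), 13 of 25 fork genes (52.0%), 10 of 18 origin genes (55.6%) and 1 of 6 epithelial genes (16.7%), against 41.1% of all genes. These shares were not tested.

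The Mcm2 probes gave opposite readings of vehicle sample 3, 446 on 1448777_at and 105 on 1434079_s_at. That sample was the highest of the 8 in 5 of the 10 genes, as in 14.5% of all genes. Rrm2, which makes deoxynucleotides together with Rrm1, had signals of 91.9, 760.0, 364 and 168 in SKI-606 samples 1 to 4, against 636, 637, 1057 and 683 in vehicle samples 1 to 4.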
